A study of Schizosaccharomyces pombe with 8 samples.

Results

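The tricalbins and the VAP-type membrane proteins of the endoplasmic reticulum (ER) are the genes described here, in the fission yeast Schizosaccharomyces pombe with and without zfs1. The group lists 5 genes, tcb1, tcb2, tcb3, scs2 and scs22, and its members were selected on measured values: tcb2 was already known from these arrays to be higher without zfs1, and the others are its relatives or partners. Probe sets were matched by gene symbol or, through a gene table, by gene identifier. This gave 1 probe set each for tcb2 (SPCP31B10.06, listed on the array under its older name mug190) and tcb3 (SPAPYUK71.03C, listed under syn1), so that 2 of the 5 genes could be measured, out of 4969 probe sets tested. No probe set carried the name of tcb1 (SPCC962.01), scs2 (SPBC16G5.05C) or scs22 (SPAC17C9.12), and these 3 genes are not analysed here. Of the 4994 yeast probe sets, 2058 had no symbol, so genes without a named probe set may still be on the array.

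The samples were 4 cultures of a wild-type strain and 4 of a strain with zfs1 deficiency, each hybridised to 1 Affymetrix array. Both strains grew at 30 °C in Edinburgh minimal medium with adenine, histidine, leucine, lysine and uracil at 50 mg/l each. The sample titles mark the deficient strain as deltaZFS, the notation of a deletion. The labels give no further genotype for either strain and no detail of the allele. Zfs1 is a zinc finger protein that binds mRNA and promotes its decay, and the study asked which transcripts differ at steady state without it.

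In fungi the ER lies closely against large parts of the plasma membrane and is held there by tether proteins. Tricalbins are one class of tether, related to the extended synaptotagmins of animals: they sit in the ER membrane, carry a lipid-binding SMP domain that can move lipids between membranes, and reach the plasma membrane with C2 domains, some of which bind calcium and acidic phospholipids. Scs2 and Scs22 are VAP proteins, a second class of tether, which recruit lipid transfer proteins with FFAT motifs, and fission yeast lacking both loses much of its ER at the cell cortex.

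Signals are on the log2 scale and differences are zfs1-deficient minus wild type, so that a difference of 1 is a doubling. The log base of the deposited values was inferred as 10, and another base would multiply all signals and differences by 1 factor. Array medians lay between 9.61 and 9.64, and the number of arrays limits the precision. The wild-type mean of the zfs1 transcript was 10.51 ± 0.10 (SD, n = 4), and the mean without zfs1 was 4.14 ± 0.45 (SD, n = 4). It was above the brightest of the 17 reporter controls, the measure of background here, on the 4 wild-type arrays and below it on the 4 deficient arrays.

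tcb2 was higher without zfs1, by about the size of a doubling. Its signal was 7.79, 7.81, 8.11 and 7.12 in wild-type replicates 1 to 4, and 8.62, 8.78, 8.96 and 8.88 in deficient replicates 1 to 4. The strains did not overlap, with the lowest deficient array 0.52 above the highest wild-type array, and wild-type replicate 4 was the lowest of all. The means were 7.71 ± 0.42 (SD, n = 4) and 8.81 ± 0.14 (SD, n = 4), a difference of 1.11 ± 0.20 (SE from limma) or 2.15-fold. As linear signal the wild-type mean was 215.0 ± 56.5 (SD, n = 4) against 451.2 ± 44.5 (SD, n = 4) for the deficient cultures. The older name marks tcb2 as one of a set of genes found to be raised in meiosis.

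tcb3 was higher as well. Its signal was 10.35, 10.22, 10.04 and 9.88 in wild-type replicates 1 to 4, and 11.07, 11.11, 10.97 and 10.73 in deficient replicates 1 to 4. The strains again did not overlap, with a gap of 0.38 between them, and replicate 4 was the lowest array in each strain. The means were 10.12 ± 0.21 (SD, n = 4) and 10.97 ± 0.17 (SD, n = 4), a difference of 0.85 ± 0.13 (SE from limma) or 1.80-fold. As linear signal this was 1122 ± 158.1 (SD, n = 4) against 2016 ± 227.2 (SD, n = 4). Signals of tcb2 and tcb3 come from different probes, so their levels are not set against each other.

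**Figure D1:**
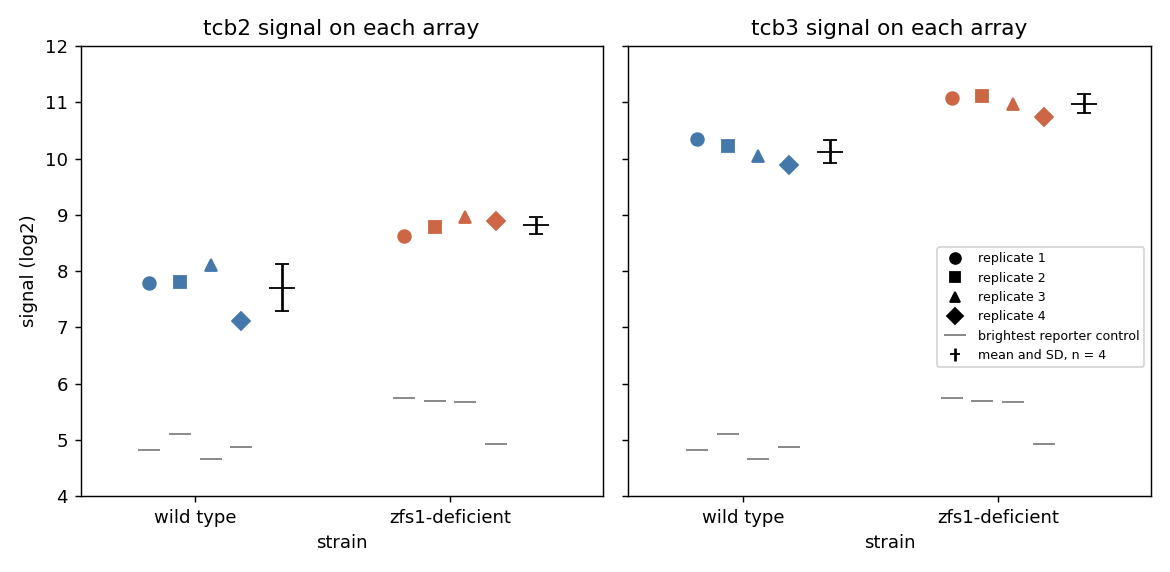
Signal (log2) of tcb2 and tcb3 on each of the 8 arrays by strain, with the mean and SD beside the points and the brightest reporter control of each array as a grey bar. All 4 zfs1-deficient arrays lie above all 4 wild-type arrays for both genes, and every point lies above the control bar of its array.

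Both measured members were among the probe sets called higher in the limma fit over all probe sets (Benjamini-Hochberg adjusted p under 0.05), against a background of 3.56% called higher. Every deficient array lay above every wild-type array for 7.83% of all probe sets, and a fit that blocks on the replicate number called 11.3% higher, the 2 members among them. Because the members were chosen from this same comparison, their values are a description and no p is given for them. Of the 4969 probe sets, 76 had a larger positive difference than tcb2 and 119 a larger one than tcb3, and the median over all of them was -0.013.

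Because the strains did not overlap for either gene, the difference was present in every numbered pair of cultures, as in any other pairing. For tcb3 the deficient culture exceeded the wild-type culture of its number by 0.72, 0.89, 0.93 and 0.85 in replicates 1 to 4. For tcb2 these values were 0.83, 0.98, 0.85 and 1.77. The pair of replicate 4 stood apart for tcb2, where the wild-type culture was 0.78 below the mean of the other 3 and the deficient culture 0.10 above. For tcb3 the replicate 4 culture was lower than the other 3 by a like amount in each strain, at -0.33 for wild type and -0.32 for the deficient cultures. Without both replicate 4 cultures the difference was 0.89 ± 0.14 (SE, n = 3 per strain) for tcb2 and 0.85 ± 0.09 (SE, n = 3 per strain) for tcb3.

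**Figure D2:**
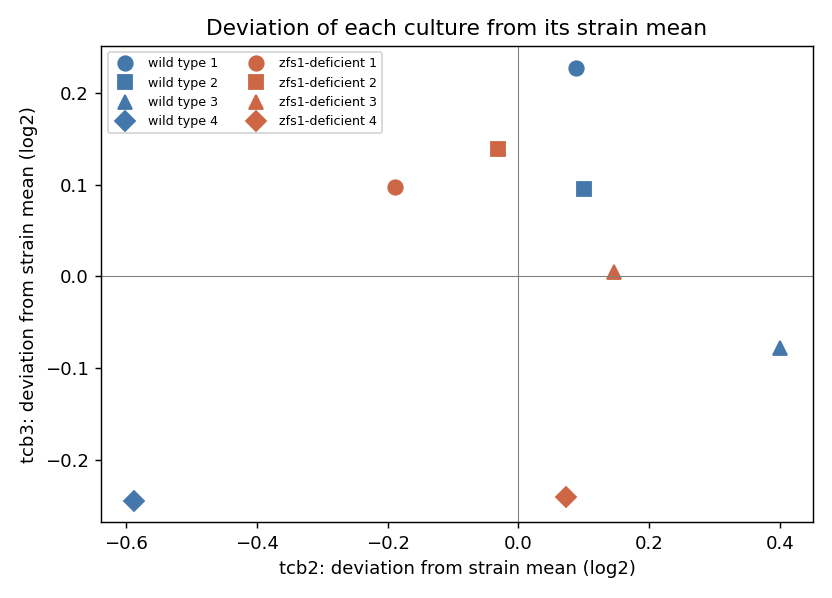
Deviation of each culture from its strain mean (log2), tcb2 on the horizontal and tcb3 on the vertical axis, with colours for the strains and marker shapes for the replicate numbers. The 2 replicate 4 cultures share the lowest tcb3 values, at -0.24 each, but lie at -0.59 (wild type) and 0.07 (zfs1-deficient) for tcb2.

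The Pearson correlation of tcb2 and tcb3 was 0.88 over the 8 arrays, which takes in the strain difference of both genes, and 0.29 over the deviations of the 8 arrays from their strain means. In replicate 4 both genes were below the strain mean in wild type, whereas in the deficient strain tcb3 was below it and tcb2 was not. In wild type the range over cultures was 0.99 for tcb2 and 0.47 for tcb3, and in the deficient strain it was 0.33 and 0.38. Whether the spread of tcb2 differed between the strains was not tested.

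Both signals lay above background on all 8 arrays. tcb2 exceeded the brightest reporter control of its array by 2.24 to 3.96 and tcb3 by 5.00 to 5.80. The brightest control itself lay between 4.65 and 5.11 on the wild-type arrays and between 4.93 and 5.75 on the deficient arrays, 3 of which exceeded every wild-type array. With 64 added to the linear signal, which damps differences near background, tcb2 still differed by 0.90 ± 0.15 (SE, n = 4 per strain) and tcb3 by 0.81 ± 0.12 (SE, n = 4 per strain).

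**Figure D3:**
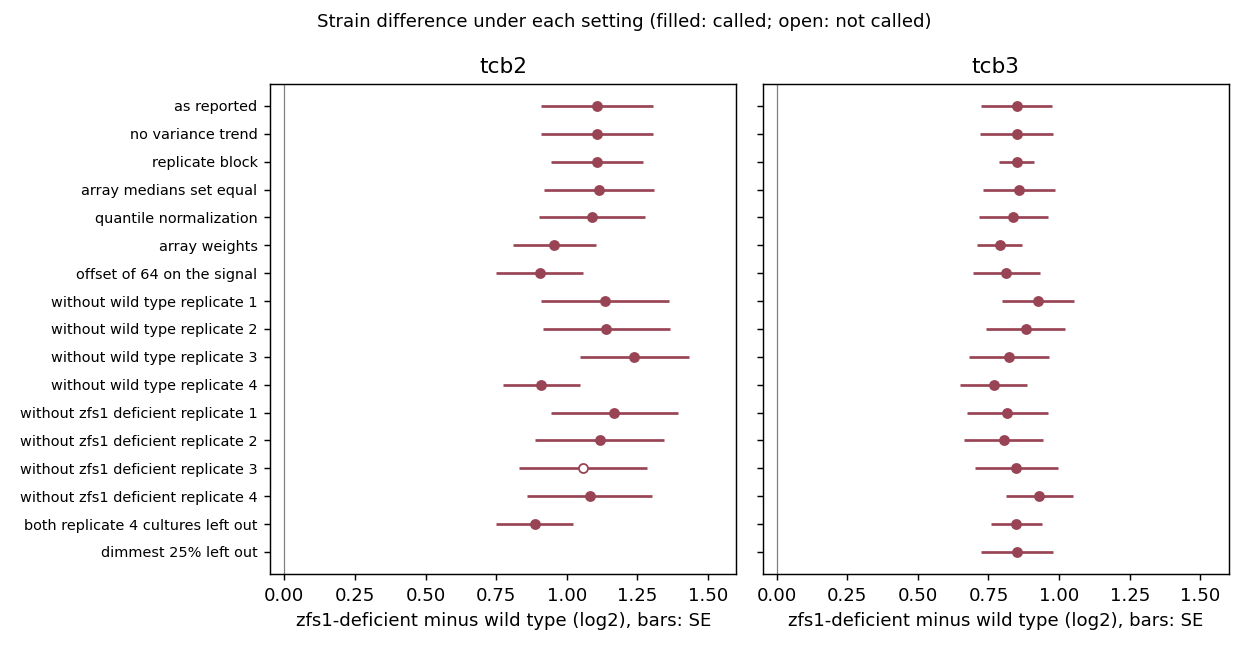
Difference between the strains (zfs1-deficient minus wild type, log2, with its SE) for tcb2 and tcb3 under each processing setting. The values run from 0.89 to 1.24 for tcb2 and from 0.77 to 0.93 for tcb3. The open point, tcb2 without zfs1-deficient replicate 3, is the setting in which the call was lost, and tcb2 has no value where the dimmest 25% were removed.

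By the order of the gene table, tcb2 and tcb1 are near neighbours on chromosome III with 2 protein-coding genes between them, eft202 (translation elongation factor 2) and rpl35A01 (a ribosomal protein). tcb3 lies on chromosome I between cta4 (a P-type ATPase) and rpb7 (an RNA polymerase II subunit). Measured neighbours of the 2 members were not called. rpl35A01 differed by 0.06 ± 0.04 (SE, n = 4 per strain; adjusted p = 0.469), while tdp1, a DNA repair phosphodiesterase next to tcb2, differed by -0.09 ± 0.18 (SE; adjusted p = 0.824). tcb3 overlaps both cta4 and rpb7 in the gene table, and no source used here says where its probes lie. cta4 differed by -0.09 ± 0.11 (SE; adjusted p = 0.705) and rpb7 by 0.10 ± 0.11 (SE; adjusted p = 0.659). tcb2 overlaps no protein-coding gene and 1 non-coding RNA, and tcb3 overlaps 4 non-coding RNAs. Whether the probe sets of tcb2 and tcb3 also read any of these RNAs is not known from the sources used here.

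Most genes close in function to the tricalbins did not pass the test, and neither did 4682 of all 4969 probe sets. Of 109 names in 8 lists of ER shape, lipid, contact site and calcium genes, 64 were measured, and 4 of these rose and 0 fell (limma, adjusted p under 0.05), beside 3.56% of all probe sets called higher and 2.21% called lower. At an unadjusted p under 0.05, 5 were higher and 3 lower, beside 1024 of all 4969 probe sets in either direction. The median difference of the 64 was 0.08 and 41 of them were above 0, against a median of -0.013 over all probe sets, of which 47.4% were above 0. Blocking on the replicate number gave 10 that rose and 5 that fell, beside 11.3% of all probe sets called higher and 12.8% called lower. Leaving out zfs1-deficient replicate 1 lowered the count of 4 to 2, and leaving out replicate 3 of that strain lowered it to 1. Over all probe sets the count called higher fell from 177 to 89 and to 75 in these fits.

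The 4 genes that rose each came from a different list. tts1 (SPBC1539.04), a membrane protein that shapes the cortical ER, rose by 0.51 ± 0.08 (SE, n = 4 per strain; adjusted p = 0.00779), 1 of 6 measured ER shape genes. The reticulon rtn1 differed by 0.10 (adjusted p = 0.528) and the ER-curving protein yop1 by 0.16 (adjusted p = 0.331). syj2 (SPBC577.13), a synaptojanin-type phosphatase of inositol lipids, rose by 0.66 ± 0.11 (SE; adjusted p = 0.0121), 1 of 11 phosphoinositide genes. syj1 of the same list went the other way, at -0.31 (adjusted p = 0.562, and 0.0300 with the block). The PI 4-kinase gene stt4, whose product makes a plasma membrane lipid handled at contact sites, differed by -0.02 (adjusted p = 0.976), and the PI4P 5-kinase gene its3 by 0.41 (adjusted p = 0.304, and 0.0260 with the block).

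dga1 (SPCC1235.15), which encodes a diacylglycerol acyltransferase of storage lipid synthesis, rose by 0.52 ± 0.09 (SE, n = 4 per strain; adjusted p = 0.0137), 1 of 16 lipid synthesis genes. psd1 and psd2 encode phosphatidylserine decarboxylases. psd1 differed by -0.39 (adjusted p = 0.180, and 0.00947 with the block), whereas psd2 differed by 0.28 (adjusted p = 0.284, and 0.0189 with the block). psd3 of the same list differed by -0.28 (adjusted p = 0.213). pkd2 (SPAC1F7.03), a TRP-like channel of the plasma membrane, rose by 0.43 ± 0.09 (SE; adjusted p = 0.0321), 1 of 13 calcium genes. The calcineurin gene ppb1 differed by -0.06 (adjusted p = 0.697) and its transcription factor gene prz1 by -0.09 (adjusted p = 0.707). With each array left out in turn, tts1 was called in 8 of 8 fits, syj2 in 7, dga1 in 6 and pkd2 in 2, and the highest adjusted p was 0.110, for pkd2.

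In the remaining 4 lists 0 genes passed, beside 3.56% of all probe sets called higher and 2.21% called lower. At an unadjusted p under 0.05 they held 1 higher and 2 lower, beside 1024 of all 4969 probe sets in either direction. The 5 measured lipid transfer genes ran from -0.0014 to 0.34 and the 5 genes of ER and mitochondrial contact from -0.36 to 0.13. The 9 genes with C2 domains outside the tricalbins ran from -0.28 to 0.42, with a median of 0.06. The single measured eisosome gene, fhn1, a protein of plasma membrane domains, was 0.70 ± 0.40 higher (SE, n = 4 per strain; adjusted p = 0.363, and 0.00768 with the block), and higher in 4 of 4 numbered pairs. With the block 3 C2 genes rose and 2 genes of ER and mitochondrial contact fell. Over all probe sets the block called 11.3% higher and 12.8% lower. Among the 2 that fell was mdm12 (a subunit of the ERMES tether), at -0.36 (adjusted p = 0.0376 with the block). These lists are described by counts and medians and were not tested as sets.

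**Figure D4:**
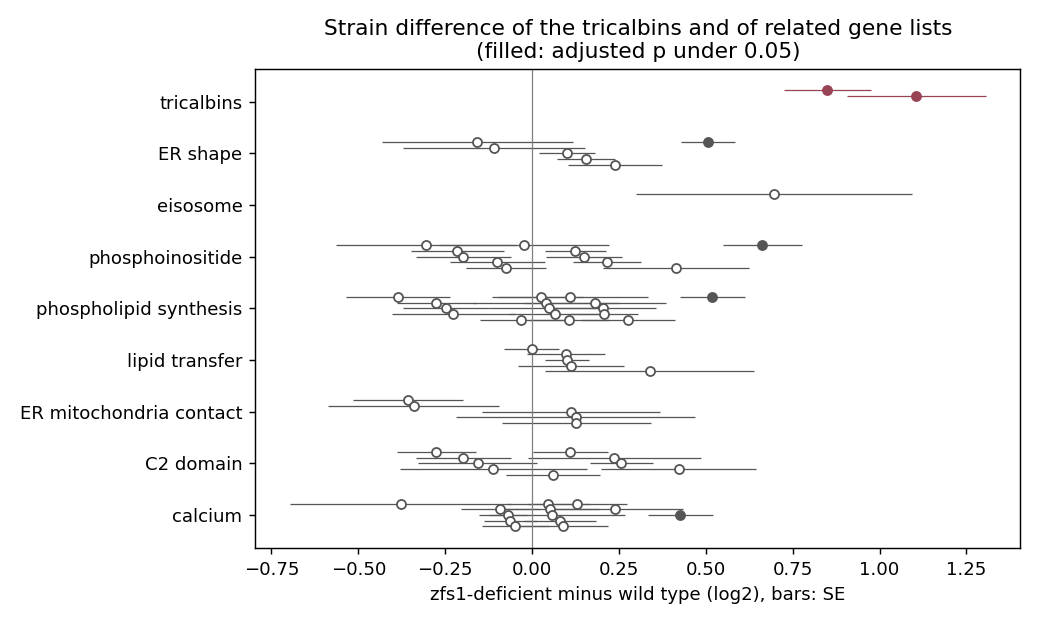
Difference between the strains (zfs1-deficient minus wild type, log2, bars SE) for tcb2, tcb3 and the measured genes of the 8 lists, filled where the adjusted p was under 0.05. The tricalbins lie at 0.85 and 1.11, and the list genes between -0.39 and 0.70. A gene in more than 1 list is drawn in each.

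The genes whose signal over the 8 arrays was most like that of each tricalbin were taken from 2862 other named genes by Pearson correlation. For tcb2 these were uve1 (SPBC19C7.09C, a UV damage endonuclease; r = 0.98), syj2 (r = 0.96) and ppk16 (SPAC890.03, a protein kinase; r = 0.96). Over the deviations from strain means, r was 0.89, 0.74 and 0.81 in that order. For tcb3 they were pdt1 (SPAC27F1.08, a manganese transporter of the Nramp family; r = 0.98), mkh1 (SPAC1F3.02C, a kinase of the cell integrity pathway; r = 0.98) and ght2 (SPBC4B4.08, a hexose transporter; r = 0.97). Over the deviations, r was 0.89, 0.88 and 0.90. These are descriptions over 8 arrays that share a strain difference and a low replicate 4 culture in wild type, and the genes were picked as the highest of 2862. tcb3 ranked 51st against tcb2 by this measure, and tcb2 ranked 65th against tcb3.

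**Figure D5:**
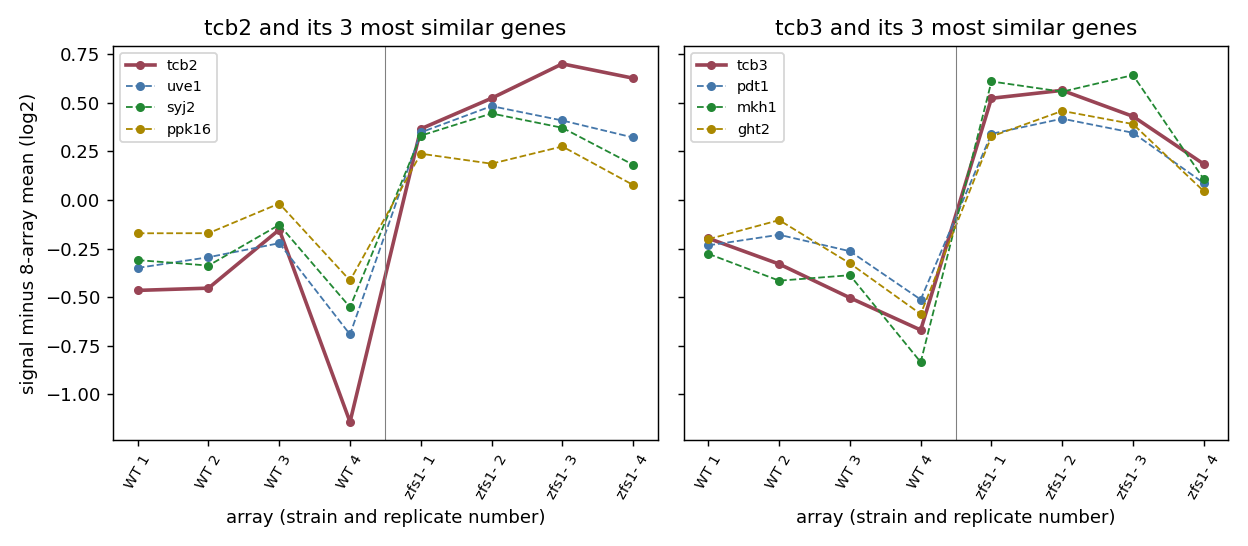
Signal minus the 8-array mean (log2) on each array for tcb2 (left) and tcb3 (right) with the 3 most similar named genes of each, wild type (WT) left of the grey line and zfs1-deficient (zfs1-) right of it. The lines only join points of 1 gene. All 8 genes drawn have their lowest value in wild-type replicate 4.

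Among these similar genes, uve1 rose by 0.78 ± 0.12 (SE, n = 4 per strain; adjusted p = 0.00715), mkh1 by 0.96 ± 0.16 (SE; adjusted p = 0.0107) and pdt1 by 0.59 ± 0.10 (SE; adjusted p = 0.0125). With an array left out in turn, uve1 and mkh1 were called in 8 of 8 fits and pdt1 in 7, with an adjusted p of 0.0520 without zfs1-deficient replicate 3. ght2 rose by 0.61 ± 0.12 (SE; adjusted p = 0.0226), called in 3 of 8 fits with an array left out, and ppk16 was 0.39 ± 0.11 higher (SE; adjusted p = 0.0765, and 0.00890 with the block). All of them were higher in 4 of 4 numbered pairs. Since likeness to a gene that differs between the strains favours genes that differ too, these values do not stand as separate evidence about the tricalbins. The similar genes were picked on these same arrays, so their adjusted p values and calls are no independent test of them either.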

How the data were processed

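Total RNA of 4 wild-type and 4 zfs1-deficient cultures was measured on Affymetrix arrays read out with the GeneChip Operating Software, per the labels. The labels name a nematode array, whereas the probe table pairs the probe sets with fission yeast genes. The authors deposited log values, read here as log10 because array medians lay between 2.890 and 2.901; no source used here gives their scaling. They were converted to log2 and otherwise used as deposited. Of 5011 probe sets, the 17 reporter controls served as background, and 4969 with at least 2 values per strain were tested with limma 3.58.1 in R 4.3.3 (lmFit, eBayes with a variance trend, 2-sided, Benjamini-Hochberg over all 4969, threshold 0.05). The fit was also run on simulated data with independent noise on each array, and no result here rests on that run. Symbols were updated by gene identifier through the gene table of assembly ASM294v3. Of several probe sets of a list gene, the brightest was used. No coordinates are printed, since the array's build is not given.

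The members and lists were chosen with earlier results of these data known, and the neighbouring genes after the values were seen. The rule named every measured member, zfs1, each called list gene and the 3 genes most correlated with each member; other list genes are points of reference. Arrays of like number deviated together from the strain means (correlations over probe sets of 0.37, 0.33, 0.26 and 0.70 for numbers 1 to 4, each over the limit of 0.1). The sample titles call the number a biological replicate, and no label says whether like-numbered cultures were grown or processed together. Deviations within a strain cancel out, so a shift shared by number 4 alone also raises the other correlations. The limit therefore does not show that every number pairs its cultures. The reported fit does not block on the number, and values from a fit that does stand beside the results whose call or count it changes. The comparison of proteins and all sequences are not analysed here. Alternatives were no trend, the replicate block, 2 other scalings, array weights, an offset of 64, a filter on the dimmest 25%, and left-out arrays. Figures were drawn with matplotlib 3.10.9.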

Additional observations from a re-analysis of the deposited data

Results flagged for a closer look

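Of 24 groups of 4 arrays examined over the members and the other genes named by rule, 3 held an array whose gap to the nearest other array, as a share of the group's range, exceeded Dixon's 95% critical value. Chance alone gives about 1 in 20 such groups, and neither tricalbin was among them. pkd2 was high in wild-type replicate 2, at 10.71 against 10.44 to 10.49 on the other wild-type arrays (share 0.839). pkd2 was low in zfs1-deficient replicate 4, at 10.78 against 10.99 to 11.02 on the other deficient arrays (share 0.856). mkh1, one of the genes most like tcb3, was low in zfs1-deficient replicate 4, at 9.55, which was 0.45 below the nearest other deficient array (share 0.840).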

How the results depend on the processing

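The differences of tcb2 and tcb3 kept their direction in every fit that gave a value. With the replicate number as a block they were 1.11 ± 0.16 and 0.85 ± 0.06 (SE), both still called. With 1 array left out they ran from 0.91 to 1.24 for tcb2 and from 0.77 to 0.93 for tcb3. tcb3 was called in all 8 of these fits and tcb2 in 7: it lost its call without zfs1-deficient replicate 3 (1.06), so that 1 member was called there and 2 in the other 7. Where the dimmest 25% were removed 1 member was called, because tcb2 was among those left out. Without updated gene names 0 of the 5 members would have been found, and each measured member has 1 probe set, so no other probe set could be tried.

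Of the list genes, 10 were called higher with the block, 17 with array weights and between 1 and 4 with an array left out. Called lower were 5 with the block, 6 with weights, 1 without both replicate 4 cultures and 0 in every fit with an array left out. Over all probe sets 563 were higher and 638 lower with the block, 761 and 756 with weights, and 332 and 277 without both replicate 4 cultures. With an array left out, 75 to 184 were higher and 28 to 125 lower, against 177 and 110. The fewest higher came without zfs1-deficient replicate 3, and the fewest lower without replicate 1 or 3 of that strain. The cause of these shifts was not tested. No alternative reversed a member, zfs1, a called list gene or a gene most correlated with a member. The direction of the other genes named here was not followed under the alternatives.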
